A study of Mus musculus with 6 samples.

Results

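The genes for the subunits of oxidative phosphorylation (OXPHOS) were examined in the RNA-seq data of 3 Dnmt3b+/− peripheral T-cell lymphomas (PTCL). They were taken from the deposited table by name, as the genes of the Nduf families a, b, c, s and v with a number, Sdha, Sdhb, Sdhc and Sdhd, all Uqcr and Atp5 genes, the cytochrome c oxidase genes of the families Cox4 to Cox8, and the mitochondrially encoded Nd, Co, Atp and Cytb genes. This rule found 97 of the 34245 genes in the table, of which 84 are nuclear and 13 mitochondrially encoded. The tumors grew in lymph nodes of FVB/N mice that carry 1 conventional knockout allele of Dnmt3b in the germline, and were taken from terminally sick animals. Each library is bulk RNA of a separate tumor, so all cells of the node contribute. Control T-cell libraries and bisulfite libraries were not analysed here, and since the 3 tumors form 1 group, the results are descriptions without tests.

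Expression is given as FPKM, the fragments on a gene normalised to the length of its exons and to the size of the library. The FPKM of Dnmt3b itself was 0.975, 1.55 and 1.25 in tumors 1, 2 and 3, and FPKM cannot separate the intact from the targeted allele. Among T-cell markers, all 10 genes searched had a mean of at least 1 FPKM. Cd8b1, which encodes a chain of the CD8 coreceptor, had the highest mean of them. Its FPKM was 435, 166 and 443 in tumors 1, 2 and 3. In tumor 2 Trac with 213 and Lck with 208 FPKM lay above Cd8b1. The depth to which the FPKM are scaled, recovered from the value that genes without a read carry, was 30726570, 18969988 and 20770928 reads in tumors 1, 2 and 3. Medians and counts below are over genes with a mean of at least 1 FPKM, which 76 of the 84 nuclear subunit genes and none of the 13 mitochondrially encoded genes reached, against 11190 genes of the whole table.

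OXPHOS is carried out in the inner mitochondrial membrane. Complexes I and II pass electrons from NADH and succinate to coenzyme Q, complex III passes them on to cytochrome c, complex IV reduces oxygen with them, and complex V, the ATP synthase, uses the proton gradient that complexes I, III and IV build up. All complexes but complex II combine subunits from the nuclear and the mitochondrial genome, and proliferating T cells raise the amount of these complexes when they leave the resting state.

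The nuclear subunit genes were expressed at high levels in every tumor. Their median was 29.5, 25.8 and 29.5 FPKM in tumors 1, 2 and 3, where the median of all genes was 6.16, 5.40 and 5.04 FPKM. By their mean over the tumors, 74 of the 76 lay above the median gene, 39 were among the 10% of genes with the highest means, and 9 had a mean of at least 100 FPKM. The 2 at or below the median gene were Ndufb2, an accessory subunit of complex I, and Cox6b2, a testis form of a complex IV subunit. Apart from Cox6b2, each of the 76 rested on at least 166 reads in every tumor. The genes that did not reach a mean of 1 FPKM were 7 tissue forms of complex IV subunits, described below, and Atp5s, which encodes an ATP synthase coupling factor. Atp5s had 0.958, 1.29 and 0.685 FPKM in tumors 1 to 3. The name rule also took in Atp5sl and Cox7a2l, which are not subunits of the 5 complexes in the strict sense, with means of 7.59 and 90.8 FPKM. Cox7a2l assembles supercomplexes and Atp5sl takes part in complex assembly.

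All 13 mitochondrially encoded subunit genes were listed in all 3 tumors at the floor that marks 0 reads. They were mt-Nd1, mt-Nd2, mt-Nd3, mt-Nd4, mt-Nd4l, mt-Nd5 and mt-Nd6 of complex I, mt-Cytb of complex III, mt-Co1, mt-Co2 and mt-Co3 of complex IV, and mt-Atp6 and mt-Atp8 of complex V, and they are the only mitochondrial genes in the table. A count of 0 allows up to 3 reads, which for mt-Co1 is 0.0632, 0.102 and 0.0935 FPKM in tumors 1, 2 and 3, and for mt-Atp8, the shortest of these genes, 0.479, 0.775 and 0.708 FPKM. Since every respiring cell carries these transcripts, the values are read here as no measurement and not as absent expression. The authors used a mapping quality cutoff of 50. Of the 50-base words of their exons, all occurred elsewhere in the genome for 5 of the 13 genes, while for mt-Nd1, mt-Nd6 and mt-Cytb none did, and for mt-Nd2 and mt-Nd5 8.29% and 7.61% did. The genes with hardly any repeated words were thus without a read as well, and why no read was listed was not tested. Ratios of mitochondrially encoded to nuclear subunits could not be formed.

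Of complex I, the NADH dehydrogenase, the name rule found 35 nuclear genes, and all of them passed the filter. It does not take in Ndufab1, the acyl carrier protein of the complex, which had 5.49, 4.91 and 3.87 FPKM in tumors 1, 2 and 3. Its median was 21.4, 20.2 and 24 FPKM in tumors 1, 2 and 3, the lowest of the complexes in tumors 1 and 2. The 7 nuclear core subunits, which carry the flavin and the iron-sulfur clusters, varied less by the median than the 28 accessory subunits. The median coefficient of variation (CV) over the 3 tumors was 13.8% for the core and 22% for the accessory subunits. The core genes Ndufs1, Ndufv2 and Ndufs7 lay above the accessory median, with CVs of 33.3%, 27.5% and 27.2%. The highest tumor reached 2 times the lowest for none of the core and 5 of the accessory genes, where 34.4% of all genes did. Both counts thus lie below the share of all genes. Ndufs1, which encodes the largest subunit of the electron input module and had the lowest core level, had 8.28, 4.32 and 5.63 FPKM in tumors 1, 2 and 3. Ndufs1 was highest in tumor 1, with 2058 reads there and 662 in tumor 2.

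The accessory gene with the highest mean was Ndufa6, a subunit of the LYR family near the coenzyme Q site. Its FPKM was 60, 175 and 144 in tumors 1, 2 and 3 (126 ± 59.7, SD, n = 3), so that tumor 1 stood apart from the others. The other accessory genes with a highest tumor at least 2 times the lowest were Ndufa1, Ndufb11, Ndufa3 and Ndufb9, and like Ndufa6 they had their lowest value in tumor 1. Ndufa3 had 16.2, 30.3 and 34.3 FPKM and Ndufb9 48.1, 96.7 and 65.5 FPKM in tumors 1, 2 and 3. At the other end, Ndufb10 varied least in complex I, with 34.2, 35.3 and 35 FPKM and a CV of 1.58%, and Ndufb2 was the least expressed, with 4.12, 2.99 and 3.52 FPKM. Exon lengths of GENCODE did not give whole reads, within 0.05 read, for 15 of the 97 genes, Ndufa6 and Ndufb9 among them, so their reads are approximate. The promoter of Ndufa6 is shown because this gene combined the highest level in complex I with its largest ratio between tumors. It is given 5′ to 3′ on the minus strand of GRCm38.p6 at chr15:82354242-82354541, from 250 bases before to 50 after the RefSeq start, and capitals mark matches to 6 short motifs that are spelled out below.
Ndufa6: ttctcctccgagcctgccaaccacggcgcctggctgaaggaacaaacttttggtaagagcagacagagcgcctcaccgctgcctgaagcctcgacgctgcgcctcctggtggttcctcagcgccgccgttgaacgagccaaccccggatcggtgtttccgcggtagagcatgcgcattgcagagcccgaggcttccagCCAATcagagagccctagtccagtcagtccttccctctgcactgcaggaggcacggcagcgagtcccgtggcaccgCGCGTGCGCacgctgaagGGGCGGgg
In this sequence the capitals are a CCAAT box, an NRF1 motif from 24 to 32 bases after the start and an SP1 motif. The window held 27 CpG.

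Complex II, succinate dehydrogenase, links the tricarboxylic acid (TCA) cycle to the respiratory chain and has no mitochondrially encoded subunit. All 4 genes were expressed, and none had a highest tumor at 2 times the lowest. Of all genes 34.4% did, so that few would in a list of 4. Sdha, the flavoprotein with the catalytic site, had 30, 21.7 and 26.1 FPKM in tumors 1, 2 and 3 (25.9 ± 4.15, SD, n = 3). Sdhb, the iron-sulfur subunit, had 14.8, 24.7 and 20.3 FPKM (19.9 ± 4.94). The membrane anchors differed in level, as Sdhc had 10.3, 7.27 and 8.74 FPKM (8.78 ± 1.53) and Sdhd had 48.6, 41.5 and 47.7 FPKM (45.9 ± 3.87). Sdhb was the only one of the 4 with its lowest value in tumor 1, and the others were lowest in tumor 2. The transcripts for subunits that occur once each in the complex thus differed in level more between genes than between tumors.

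Complex III, the cytochrome bc1 complex, had a median over its 8 nuclear genes of 40.9, 36 and 33.9 FPKM in tumors 1, 2 and 3. Uqcrc1, a core protein, varied least of all 76 genes, with 24.5, 24 and 24.1 FPKM in tumors 1, 2 and 3 and a CV of 1.05%. Uqcrfs1, the Rieske iron-sulfur protein, had 41.9, 41.1 and 36.3 FPKM with a CV of 7.62%. The highest levels were those of small accessory subunits, of which Uqcr10 had 55.2, 104 and 97.3 FPKM and Uqcrh, the hinge protein, had 73.9, 57.7 and 103 FPKM. The lowest of the accessory genes, Uqcrq, had 20.4, 31 and 25.1 FPKM. Uqcrb, which lies beside the coenzyme Q pocket, was the only one of the 8 genes with a highest tumor at least 2 times the lowest. Of all genes 34.4% had such a ratio. Uqcrb had 44.2, 13.7 and 28.9 FPKM in tumors 1, 2 and 3, on 1190, 227 and 526 reads. Of its 50-base exon words 28.1% occur elsewhere in the genome, so its level is uncertain.

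Complex IV, cytochrome c oxidase, had the highest median of the 5 complexes in every tumor, with 56.8, 55.5 and 63.4 FPKM in tumors 1, 2 and 3 over 13 genes. By the median of means over the tumors its lead was small, 47.3 against 44.2 FPKM for complex V, and turned to 43.2 against 46.5 FPKM without tumor 2. Without Cox7a2l, which is not a subunit in the strict sense, it was 44.9 against 44.2 FPKM. Its core, which holds the heme and copper centers, is mitochondrially encoded and was not measured, so these values belong to the nuclear subunits around it. Cox8a, the smallest of these, had the highest level of all 97 genes, 191, 399 and 332 FPKM in tumors 1, 2 and 3 (307 ± 106, SD, n = 3), which is uncertain since 20.3% of its 50-base exon words occur elsewhere in the genome. Cox6a1 followed with 158, 211 and 170 FPKM (180 ± 27.8), and Cox6c had the lowest mean apart from the tissue forms, with 23.1, 20.6 and 20 FPKM (21.2 ± 1.67). Of the 13 genes 6 had a highest tumor at least 2 times the lowest, where 34.4% of all genes did. Of these, Ndufa4, Cox7b, Cox7c, Cox8a and Cox6b2 were lowest in tumor 1, and only Cox7a2 was highest there. One of the 6, Cox6b2, rests on few reads. Ndufa4, first known as a complex I protein and now assigned to complex IV, had 16.4, 47.7 and 63.4 FPKM in tumors 1, 2 and 3, on 697, 1249 and 1818 reads. Cox7a2 went the other way, with 56.8, 18.5 and 25.4 FPKM in tumors 1, 2 and 3, on 1648, 332 and 499 reads. Cox5a, which encodes a matrix-side subunit, had 36.1, 39 and 35.1 FPKM and a CV of 5.62%, so that within the same complex some subunits were nearly level while others differed by more than 3 times.

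The promoters of Ndufa4 and Cox7a2, the ubiquitous complex IV genes with the largest ratios in either direction, are shown side by side. Both lie on the minus strand of GRCm38.p6, at chr6:11907401-11907700 and chr9:79759804-79760103, in windows of the same kind.
Ndufa4: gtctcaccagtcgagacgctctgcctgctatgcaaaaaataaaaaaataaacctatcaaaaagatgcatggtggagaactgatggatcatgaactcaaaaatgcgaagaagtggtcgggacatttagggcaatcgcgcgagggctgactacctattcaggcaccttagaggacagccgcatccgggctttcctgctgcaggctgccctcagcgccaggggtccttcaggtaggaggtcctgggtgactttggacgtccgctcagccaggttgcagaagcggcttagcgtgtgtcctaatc
Cox7a2: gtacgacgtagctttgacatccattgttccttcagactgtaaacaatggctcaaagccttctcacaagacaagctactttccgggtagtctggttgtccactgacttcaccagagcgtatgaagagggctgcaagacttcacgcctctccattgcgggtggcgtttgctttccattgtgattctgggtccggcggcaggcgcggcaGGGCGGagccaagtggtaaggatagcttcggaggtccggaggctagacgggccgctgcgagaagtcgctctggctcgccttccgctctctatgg
No match to the 6 motifs was found in the Ndufa4 window, which held 14 CpG. The Cox7a2 window held 20 CpG and an SP1 motif from 44 to 39 bases before the start.

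Complex V, the ATP synthase, had a median of 38.2, 39.5 and 49.3 FPKM in tumors 1, 2 and 3 over the 15 nuclear genes that the name rule found, which leave out Usmg5, a small membrane subunit with 120, 70.8 and 126 FPKM. The F1 part, which joins the catalytic head and the central stalk, was expressed above the membrane part and peripheral stalk, with medians of 72.9, 92.1 and 78.6 FPKM over its 5 genes against 33.5, 25.7 and 31.7 FPKM over the other 10. Atp5b, the catalytic beta subunit, had 140, 106 and 112 FPKM in tumors 1, 2 and 3 (119 ± 17.9, SD, n = 3). Atp5a1, the alpha subunit, had 127, 95.9 and 106 FPKM (110 ± 16). These partners, which alternate in the head, had the same order of tumors and similar levels. Atp5d, the delta subunit of the central stalk, differed from them, with 39.3, 92.1 and 78.6 FPKM in tumors 1, 2 and 3, and Atp5l, the membrane subunit g, was among the lowest with 19.9, 11 and 19.6 FPKM. Of the 15 genes 5 had a highest tumor at least 2 times the lowest, close to the 34.4% of all genes, namely Atp5g2, Atp5d and Atp5k, which were lowest in tumor 1, and Atp5h and Atp5f1, which were highest there.

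For 8 subunits mice have more than 1 gene, and these paralogs show which tissue form a cell uses. In all 7 complex IV groups the ubiquitous paralog made up nearly all FPKM, and for Cox7b all reads, since Cox7b2 had none. The share of Cox4i1 in the Cox4i group was 99.7% ± 0.290 (SD, n = 3), that of Cox6a1 99.7% ± 0.315, that of Cox8a 99.7% ± 0.311, that of Ndufa4 99.3% ± 0.514, that of Cox6b1 98.7% ± 0.793 and that of Cox7a2 96.5% ± 3.50. The lowest share was that of Cox7a2 in tumor 2, 92.6%, while the other tumors had 99.4% and 97.6%. Cox7a2 itself was low in tumor 2, and its striated muscle paralog Cox7a1 had 15 reads there against 6 and 7 reads in tumors 1 and 3.

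The tissue forms were near the limit of detection, and several of them were highest in tumor 2. Cox8b, the striated muscle and brown fat form, had 2.34 FPKM in tumor 2 on 16 reads and no read in tumors 1 and 3, where 3 reads would be 0.271 and 0.401 FPKM. Cox6a2, another muscle form, had 0.191, 1.32 and 0.0637 FPKM on 4, 17 and 0 reads. Ndufa4l2, a paralog known for its induction by hypoxia, had 0.149, 0.481 and 0.0396 FPKM on 5, 10 and 0 reads. Cox4i2, the lung form, differed, with 0.578, 0.268 and 0.0611 FPKM on 14, 4 and 1 reads and its highest value in tumor 1. The testis form Cox6b2 had 0.382, 1.05 and 1.69 FPKM on 13, 22 and 39 reads and was highest in tumor 3, so these forms had no common order. No read was listed for the testis forms Cox7b2 and Cox8c in any tumor. At these depths differences between tumors of a few reads cannot be told from counting error.

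Genes that mark tissues in which the muscle forms are used were low but also not even. Of 6 striated muscle genes none had a mean of at least 1 FPKM, and their summed level was 0.905, 1.28 and 0.495 FPKM in tumors 1, 2 and 3. The most abundant, Tnnt3, had 0.781, 0.666 and 0.365 FPKM, and Actc1 had no read in any tumor. Ckm, the muscle creatine kinase, was highest in tumor 2 like Cox8b, Cox6a2 and Cox7a1, with 0.0559, 0.452 and 0.0331 FPKM on 5, 25 and 2 reads. Of 6 brown adipocyte genes 1 had a mean of at least 1 FPKM, and their summed level was 2.81, 8.62 and 0.189 FPKM. Cidea had the highest mean, with 2.99 FPKM in tumor 2 and no read in tumors 1 and 3. Ucp1, the defining uncoupling protein, had 37 reads in tumor 2 and none in tumors 1 and 3. Fabp4 with 74, 189 and 6 reads and Adipoq with 4, 57 and 0 reads were also highest in tumor 2, while Ppargc1a, with 428, 2 and 3 reads, made up 2.11 FPKM of the sum in tumor 1. The part of such cells in the values of Cox8b, Cox7a1 and Cox6a2 was not tested.

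**Figure D1:**
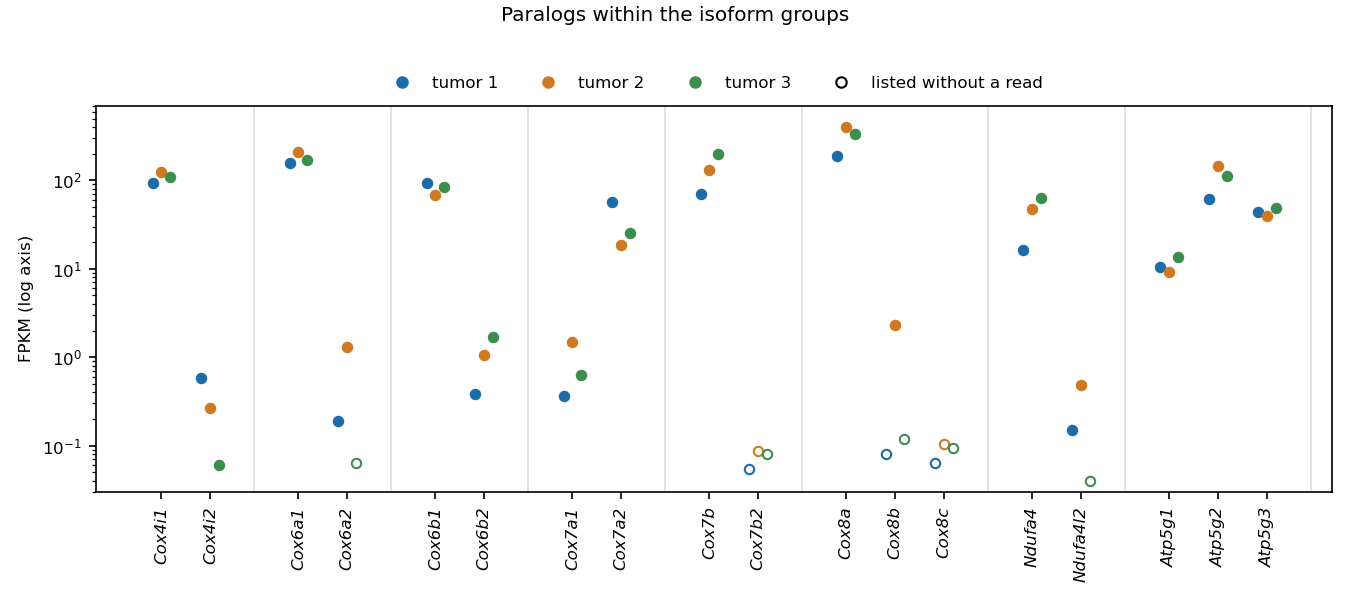
FPKM (log axis) of the paralogs of 8 subunits in each tumor, with open circles where no read was listed. In the complex IV groups the ubiquitous paralog lies between 16.4 and 399 FPKM and the tissue forms at or below 2.34 FPKM, while the 3 genes of the ATP synthase c subunit are all expressed.

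The promoters of a ubiquitous and a tissue form are set side by side for the Cox8 and the Cox6b pair, chosen after their values were seen. They are from the minus strand of GRCm38.p6, at chr19:7217567-7217866 for Cox8a, chr7:140900397-140900696 for Cox8b, chr7:30626065-30626364 for Cox6b1 and chr7:4753045-4753344 for Cox6b2, and capitals mark the motifs as above.
Cox8a: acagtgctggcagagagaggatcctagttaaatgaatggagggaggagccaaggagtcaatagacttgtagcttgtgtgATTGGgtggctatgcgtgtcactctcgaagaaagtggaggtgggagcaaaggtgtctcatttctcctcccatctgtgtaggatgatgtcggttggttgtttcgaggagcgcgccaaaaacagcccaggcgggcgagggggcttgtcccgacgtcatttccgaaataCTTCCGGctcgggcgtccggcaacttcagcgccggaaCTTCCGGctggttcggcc
Cox8b: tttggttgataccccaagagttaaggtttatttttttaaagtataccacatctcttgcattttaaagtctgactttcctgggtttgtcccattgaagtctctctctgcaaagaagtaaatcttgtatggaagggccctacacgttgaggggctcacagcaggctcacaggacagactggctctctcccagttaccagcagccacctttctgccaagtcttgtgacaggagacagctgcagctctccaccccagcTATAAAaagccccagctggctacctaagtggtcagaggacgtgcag
Cox6b1: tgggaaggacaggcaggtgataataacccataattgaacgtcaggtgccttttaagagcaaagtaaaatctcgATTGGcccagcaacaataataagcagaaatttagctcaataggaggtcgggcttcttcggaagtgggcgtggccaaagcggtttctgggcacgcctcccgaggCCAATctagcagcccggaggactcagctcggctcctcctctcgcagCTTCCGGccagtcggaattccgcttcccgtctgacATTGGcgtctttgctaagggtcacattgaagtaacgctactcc
Cox6b2: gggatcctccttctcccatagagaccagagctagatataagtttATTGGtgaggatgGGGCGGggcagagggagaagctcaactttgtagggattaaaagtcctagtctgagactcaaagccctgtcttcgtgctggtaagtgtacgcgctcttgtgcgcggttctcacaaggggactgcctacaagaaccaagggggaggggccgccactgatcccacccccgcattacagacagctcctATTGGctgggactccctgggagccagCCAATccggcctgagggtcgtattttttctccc
The Cox8a window held 19 CpG and 2 ETS motifs, and the Cox8b window 2 CpG, no ETS motif and a TATA motif from 4 to 9 bases after the RefSeq start. Cox6b1 had 17 CpG and an ETS motif from 28 to 22 bases before the start, and Cox6b2 had 10 CpG and no ETS motif. Both Cox6b windows had 3 CCAAT boxes. In these pairs the gene with the higher level had more CpG and an ETS motif. Of the other complex IV pairs with both promoters listed, the Cox7a pair shared only the CpG part and the Cox7b pair neither. Cox7b had 5 CpG and its paralog without a read, Cox7b2, had 10, and Cox7a2 had 20 CpG and Cox7a1 7, with no ETS motif in any of these 4 windows.

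The c subunit of the ATP synthase, which forms the rotor ring in the membrane, differs from the complex IV groups in that 3 genes encode the same mature protein. Atp5g2 had 62.2, 147 and 112 FPKM in tumors 1, 2 and 3 and the largest share in each, 53.4%, 75.2% and 64%. Atp5g3 had 43.8, 39.5 and 49.3 FPKM and a share of 37.6%, 20.2% and 28.1%, and Atp5g1 had 10.5, 9.21 and 13.7 FPKM and a share of 9.01%, 4.70% and 7.81%. The mix therefore differed between tumors by a change in Atp5g2, while Atp5g3 and Atp5g1 varied less, with CVs of 11.1% and 20.7% against 39.9%. Pseudogenes are a limit here, as 30.8% of the 50-base exon words of Atp5g2 and 26% of those of Atp5g1 occur elsewhere in the genome, and none of those of Atp5g3.

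Across the 76 genes the tumors differed less than across all genes in FPKM as deposited. The spread of all genes was not computed under other scalings, so whether the gap holds there was not tested. The median CV was 21.3% for the subunit genes and 26.8% for all 11190 genes, and in genes with a mean of at least 10 FPKM it was 20.9% for 68 subunit genes and 24.1% for 3432 genes. The highest tumor was at least 2 times the lowest for 17 of the 76 genes, or 22.4%, against 34.4% of all genes, and among genes with a mean of at least 10 FPKM for 16 of 68 or 23.5% against 27.7%, so that the gap was smaller at matched level. In order of this ratio the 17 genes were Cox6b2, Ndufa4, Uqcrb, Cox7a2, Ndufa6, Cox7b, Atp5g2, Ndufa1, Atp5d, Cox7c, Ndufb11, Atp5k, Atp5h, Atp5f1, Ndufa3, Cox8a and Ndufb9. Tumor 1 is involved in most of these differences, since between tumors 2 and 3 only Uqcrb of the 76 genes reached a ratio of 2. Without tumor 2 or tumor 3 the count was 10 and 12. The share of all genes past this ratio was not counted for pairs of tumors, so these counts are not set against other genes. When the filter was applied to the remaining tumors, 3 genes reached a ratio of 2 without tumor 1, Uqcrb and the tissue forms Cox7a1 and Cox8b, on few reads. The count was 10 without the 17 genes that have at least 10% of their exon words elsewhere in the genome, a choice made after seeing the data. These genes, whose levels are uncertain for that reason, were Cox7a2l, Ndufs5, Atp5g2, Uqcrb, Atp5g1, Cox7c, Cox8a, Atp5h, Ndufs3, Ndufb11, Ndufb4, Uqcr11, Cox5b, Ndufb3, Ndufa1, Ndufa12 and Atp5l.

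The order of the tumors differed from that of other genes. Tumor 1 had the highest value for 30 of the 76 genes, tumor 2 for 19 and tumor 3 for 27, or 39.5%, 25% and 35.5%, where the same split of all genes was 50.6%, 33.7% and 15.7%. The split depends on how the libraries are scaled. It was 18, 19 and 39 genes with median-of-ratios factors, beside 39%, 37.2% and 23.7% of all genes, and 39, 18 and 19 genes with equal sums of FPKM, beside 60.5%, 30.7% and 8.75% of all genes. Under each of these scalings the share that was highest in tumor 3 was larger in the subunit genes than in all genes.

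On the scale of log2(FPKM + 1), the median difference of tumor 3 from tumor 1 was 0.10 for the subunit genes and −0.20 for all other genes, which is 0.30 between them. The sign of the first value changed with the scaling. It was −0.14 on the TPM scale and with equal sums of FPKM, and 0.29 with median-of-ratios factors. Relative to other genes the difference was between 0.25 and 0.33 under all 3. A factor per library moves subunit genes and other genes nearly alike, so this range could hardly have differed. The TPM scale and equal sums also use nearly the same factors. For tumor 3 against tumor 2 the median was 0.19 for the subunit genes and −0.05 for other genes, a difference of 0.24. For tumor 2 against tumor 1 the medians, −0.15 for the subunit genes and −0.14 for other genes, hardly differed, and the sign of both the difference and the first value changed with the scaling. Level bears on this, since among genes with a mean of at least 10 FPKM the difference of tumor 3 from tumor 1 relative to other genes was 0.18, and that from tumor 2 was 0.21, and without any filter they were 0.07 and 0.18. For tumor 2 against tumor 1, tumor 3 against tumor 1 and tumor 3 against tumor 2, the median of all genes shifted by −0.15, −0.27 and −0.12 on the TPM scale, by 0.13, 0.15 and 0.03 with median-of-ratios factors and by −0.11, −0.20 and −0.09 with equal sums of FPKM. In bulk RNA a larger share of cells with more OXPHOS transcripts and more of these transcripts per cell cannot be told apart.

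By complex, the median difference of tumor 3 from tumor 1 was 0.09 in complex I, −0.11 in complex II, 0.13 in complex III, 0.35 in complex IV and −0.01 in complex V. The accessory genes had the higher values, with 0.25 for those of complex I and 0.47 for those of complex III, where the core genes had −0.03 and −0.20. Such values shift with the scaling, and they stand beside the −0.20 of other genes, above which every complex lay. The core value of complex III rests on 3 genes. Accessory genes also had shorter exons than core genes, with medians of 1234 against 2178 bases in complex I and 876 against 2552 in complex III. The part of length in this contrast was not tested.

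Ratios between tumors went with the base composition of the exons, in the subunit genes as in the whole table. Over the 76 genes the log2 difference of tumor 2 from tumor 1 had a Pearson correlation with GC content of 0.440 (Spearman 0.492), that of tumor 3 from tumor 1 of 0.214 (0.326) and that of tumor 3 from tumor 2 of −0.518 (−0.564). Over 11168 genes the same 3 Pearson correlations were 0.364, 0.153 and −0.289, all of them across genes, which are not independent replicates. Among the 26 subunit genes with the lowest GC content, up to 47.9%, 14, 1 and 11 were highest in tumors 1, 2 and 3. Among the 25 with the highest, from 52.1%, the counts were 4, 12 and 9. Of all genes of any GC content 50.6%, 33.7% and 15.7% were so. The split of all genes within these GC ranges was not counted, so these counts do not set the subunit genes apart. The median difference of tumor 2 from tumor 1 was −0.38 in the 26 genes and 0.56 in the 25 genes, where all genes of these GC ranges had −0.42 and 0.22. Length differed as well, as the median exon length was 1697 bases for the subunit genes and 3984 for all genes, and the correlation with its logarithm for tumor 3 against tumor 1 was −0.364 over the subunit genes and −0.0513 over all genes. When each tumor was centred within 20 bins of GC content, an alternative chosen after seeing the data, 11, 14 and 51 of the 76 genes were highest in tumors 1, 2 and 3, beside 35.3%, 34.4% and 30.3% of all genes, and the difference of tumor 3 from tumor 1 relative to other genes was 0.30. The centring shifted the median of all genes by 0.14 for tumor 2 and 0.19 for tumor 3 against tumor 1.

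**Figure D2:**
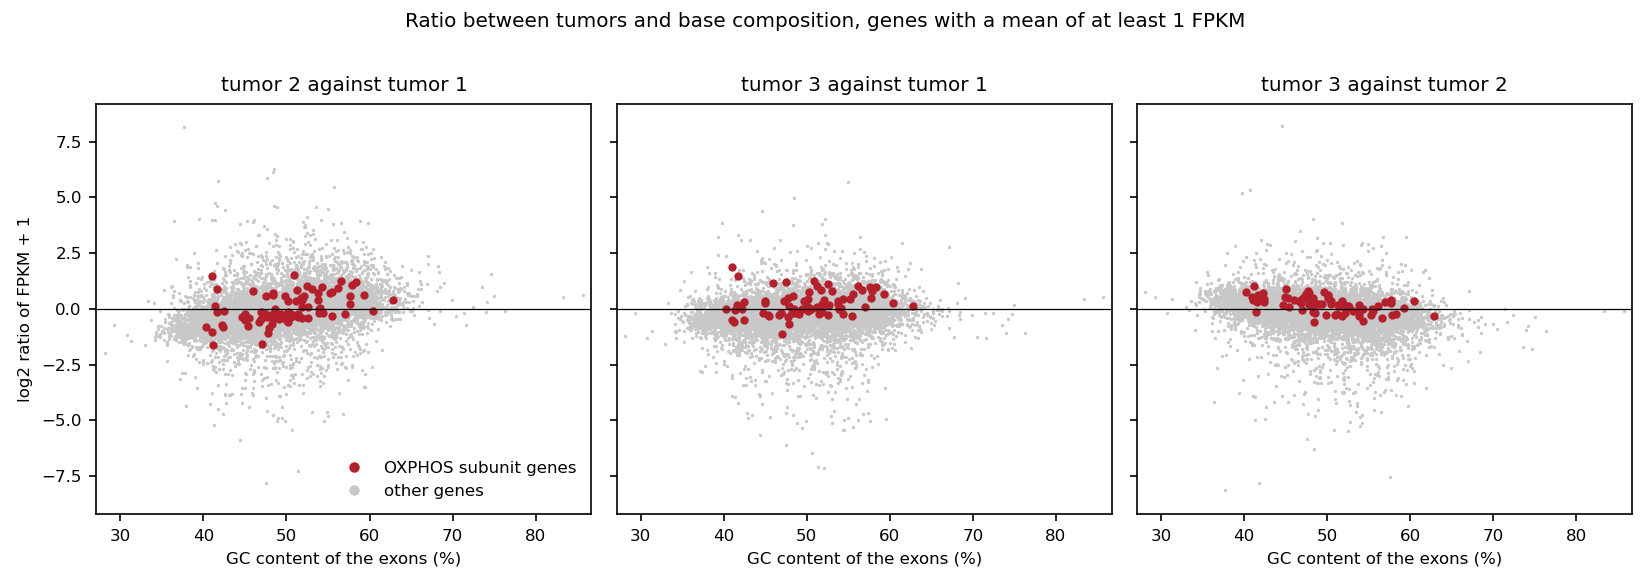
Log2 ratio of FPKM + 1 between tumors against the GC content of the exons for the 76 OXPHOS subunit genes and all other genes with a mean of at least 1 FPKM. Tumor 2 against tumor 1 rises with GC content (Pearson 0.440 for the subunit genes) and tumor 3 against tumor 2 falls (−0.518), and in the latter most low-GC subunit genes lie above 0.

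The 3 X-linked subunit genes, Ndufa1 and Ndufb11 of complex I and Cox7b of complex IV, behaved alike. Ndufa1, a small membrane subunit, had 53.3, 79.6 and 125 FPKM in tumors 1, 2 and 3 on 686, 633 and 1092 reads. Ndufb11, another membrane subunit, had 48.1, 97.9 and 107 FPKM, and Cox7b, a small subunit needed for complex IV assembly, had 70.2, 130 and 197 FPKM. All 3 were lowest in tumor 1 and highest in tumor 3, with a difference of tumor 3 from tumor 1 of 1.22, 1.14 and 1.48 on the log2 scale. Of the exon words of Ndufa1 and Ndufb11 13.6% and 17.3% occur elsewhere in the genome, and 5.95% of those of Cox7b, so the levels of the former are uncertain.

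A highest value in tumor 3 was frequent among X-linked genes. Of 331 X-linked genes, 54.7% were highest in tumor 3 and 14.2% in tumor 1, where all 3 subunit genes were highest in tumor 3 and none in tumor 1. The median difference of tumor 3 from tumor 1 was 0.40 for X-linked and −0.21 for autosomal genes, and that of tumor 2 from tumor 1 was 0.26 and −0.15. The subunit genes lay above the X-linked median in both. Xist, the RNA of the inactive X chromosome, ran against them, with 105, 40.8 and 42.2 FPKM in tumors 1, 2 and 3, and the 4 Y-linked genes examined, Kdm5d, Eif2s3y, Uty and Ddx3y, had no read. What part X dosage has in the values of the 3 genes was not tested. Without them the median of the other genes relative to the rest of the table was 0.28 for tumor 3 against tumor 1.

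Their promoters are shown as those of members that moved together. They are from GRCm38.p6, for Ndufa1 at chrX:37191189-37191488 and for Ndufb11 at chrX:20617570-20617869 on the minus strand, and for Cox7b at chrX:106015450-106015749 on the plus strand, with the motifs in capitals.
Ndufa1: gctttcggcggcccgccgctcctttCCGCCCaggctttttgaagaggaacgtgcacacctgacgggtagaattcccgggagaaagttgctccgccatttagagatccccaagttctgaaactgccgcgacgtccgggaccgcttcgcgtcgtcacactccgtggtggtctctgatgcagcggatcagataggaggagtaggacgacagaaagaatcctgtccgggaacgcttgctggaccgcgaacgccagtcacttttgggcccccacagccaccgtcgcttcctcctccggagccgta
Ndufb11: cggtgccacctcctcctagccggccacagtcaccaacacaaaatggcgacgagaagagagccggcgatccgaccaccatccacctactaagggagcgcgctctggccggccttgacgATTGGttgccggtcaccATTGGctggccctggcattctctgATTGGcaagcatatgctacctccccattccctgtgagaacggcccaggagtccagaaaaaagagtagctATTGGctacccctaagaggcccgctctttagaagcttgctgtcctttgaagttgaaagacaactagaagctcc
Cox7b: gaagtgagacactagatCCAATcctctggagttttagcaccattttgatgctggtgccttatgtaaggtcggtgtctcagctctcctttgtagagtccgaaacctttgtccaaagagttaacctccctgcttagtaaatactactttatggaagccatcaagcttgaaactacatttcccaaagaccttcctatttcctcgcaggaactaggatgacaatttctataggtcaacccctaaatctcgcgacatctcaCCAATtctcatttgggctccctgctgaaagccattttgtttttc
The 3 windows had little in common. Ndufa1 held 29 CpG and an SP1 motif, Ndufb11 held 14 CpG and 4 CCAAT boxes, and Cox7b held 5 CpG and 2 CCAAT boxes. None had an NRF1, ETS or YY1 motif.

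**Figure D3:**
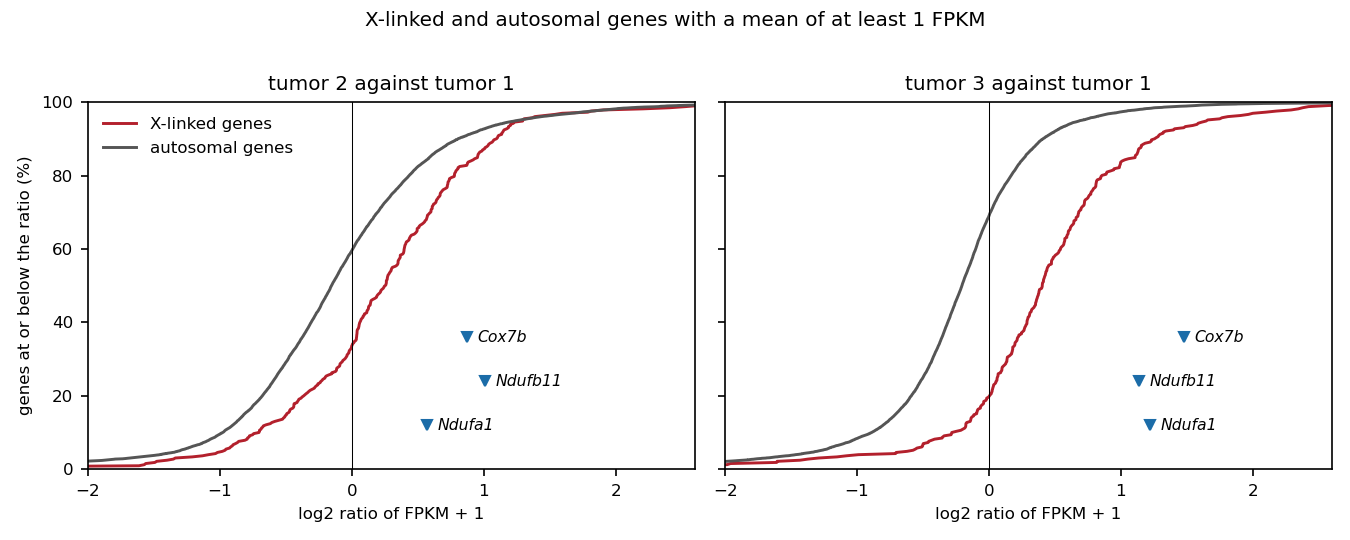
Cumulative share of X-linked and autosomal genes with a mean of at least 1 FPKM at or below a log2 ratio of FPKM + 1, for tumors 2 and 3 against tumor 1, drawn between −2 and 2.6. Triangles mark the ratios of Ndufa1, Ndufb11 and Cox7b at arbitrary heights, which lie to the right of both medians.

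Genes that build and supply the complexes were expressed at lower levels than the subunits. The counts of genes with a highest tumor at least 2 times the lowest that follow stand beside 34.4% of all genes, and in each list the share was below it. Of 15 complex I assembly factors 14 passed the filter, 1 of them with a highest tumor at least 2 times the lowest, Ndufaf4, which had 9.10, 3.28 and 6.53 FPKM in tumors 1, 2 and 3. The most abundant were Ndufaf8, with 11.5, 14.3 and 20 FPKM, and Tmem186, with 9.43, 12 and 13.6 FPKM. Of 13 assembly factors of complexes II, III and V 11 passed the filter and 2 had such a ratio, and the most abundant were the complex III factors Uqcc2, with 14.8, 22.1 and 29.8 FPKM, and Uqcc3, with 12.4, 23.6 and 22.1 FPKM. The largest ratio past the filter was that of Sdhaf1, which serves complex II, with 2.85, 1.35 and 1.33 FPKM. These assembly factors had medians between 3.58 and 6.59 FPKM, below those of the complexes.

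All 20 complex IV assembly factors passed the filter, with medians of 7.33, 7.22 and 6.93 FPKM. Of these, 5 had a highest tumor at least 2 times the lowest, in both directions. Cox20, a chaperone of subunit II, had 66.7, 25.3 and 27.8 FPKM in tumors 1, 2 and 3, while Cox14, which acts on subunit I, had 13.9, 48 and 41.5 FPKM. Of 16 genes for electron carriers and coenzyme Q synthesis 14 passed the filter and 1 had such a ratio, Pdss1 of coenzyme Q side chain synthesis, with 2.87, 0.893 and 1.07 FPKM. Cyc1, the cytochrome c1 of complex III that the name rule does not take in, had 47, 52.8 and 40.6 FPKM, and Etfb, an electron-transfer flavoprotein subunit, had 22.3, 28.1 and 16.2 FPKM. Cyc1 was thus in the range of the complex III subunits.

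Of the 14 genes for maintenance and transcription of mitochondrial DNA all passed the filter and 2 had a ratio of 2. Slirp, which stabilises mitochondrial mRNAs, had 12.5, 15.9 and 15.4 FPKM, Tefm, an elongation factor, had 8.08, 8.86 and 8.49 FPKM, and Lrpprc, the partner of Slirp, had 7.55, 3.38 and 4.94 FPKM. The machinery for mitochondrial transcripts was therefore expressed in all tumors, although the transcripts themselves were listed without a read. Of the 14 TCA cycle genes none had a ratio of 2, and the most abundant by mean was Mdh2, with 40.2, 34.3 and 32.3 FPKM. Dld, the lipoamide dehydrogenase, had the largest ratio in the list, with 16.5, 8.36 and 11.6 FPKM. All 77 mitochondrial ribosomal protein genes passed the filter, 14 of them with a ratio of 2 where 34.4% of all genes had one, and their medians were 8.30, 6.80 and 8.04 FPKM. The largest ratio was that of Mrpl52, with 18.4, 37.2 and 50.6 FPKM. Mrpl52 was also the most abundant by mean, before Mrpl18 with 33.8, 27.4 and 33.8 FPKM.

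The median difference of tumor 3 from tumor 1 was 0.10 in the subunit genes and 0.13 in the complex IV assembly factors. It was −0.27 in the TCA cycle genes, −0.09 in the mitochondrial ribosomal proteins and −0.02 in the complex I assembly factors. The assembly factors of complexes II, III and V and the genes for electron carriers and coenzyme Q synthesis both had −0.18. Those for mitochondrial DNA had −0.25 and the regulators of OXPHOS genes −0.30. Tumor 1 was highest for 40 of the ribosomal protein genes, tumor 2 for 20 and tumor 3 for 17, a split nearer to that of all genes. Of the 10 regulators of OXPHOS genes 9 passed the filter, and none of these was highest in tumor 3, where 15.7% of all genes were, so that few would be so in a list of this size. Myc had 55.2, 38 and 30.4 FPKM and Hcfc1 20.3, 23.7 and 19.1 FPKM, and Esrra, an orphan nuclear receptor that acts with PGC-1 coactivators, had the largest ratio of these with 6.93, 21.2 and 14.7 FPKM. Ppargc1a, the coactivator below the filter, had 428, 2 and 3 reads and a larger ratio. Whether any of them bears on the subunits was not tested.

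The libraries also differed in RNA of other cells of the node, which was set beside the subunit genes. All 5 B-cell genes had a mean of at least 1 FPKM and were highest in tumor 3, with a summed level of 56.2, 13.7 and 104 FPKM in tumors 1, 2 and 3, and the most abundant, Cd79a, had 23.1, 7.31 and 49 FPKM. All 5 macrophage genes passed the filter and 4 were highest in tumor 1, with a summed level of 335, 113 and 34 FPKM. Lyz2, the most abundant by mean, had 215, 33.1 and 20.3 FPKM. Of 5 erythroid genes 3 passed the filter, with a summed level of 131, 27.1 and 3.46 FPKM and 92.3, 19.6 and 1.90 FPKM of Hba-a1, while Slc4a1 had 13 reads in tumor 1 and none in the others. The summed level of the 10 T-cell genes, to which Cd8b1 and Cd8a added most in tumors 1 and 3, was 1352, 1106 and 1464 FPKM, but 3 of these genes had a highest tumor at least 2 times the lowest, among them Cd4 with 28.4, 4.28 and 8.22 FPKM.

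Tumor 2 stood out by genes of the exocrine pancreas, of which all 8 passed the filter and were highest there, with a summed level of 87, 440 and 0.657 FPKM and 33.9, 198 and 0.0494 FPKM of Ctrb1. Of 5 spermatogenic genes 1 passed the filter, Prm1 with 1.53, 3.26 and 0.205 FPKM, and Ddx4, Tnp1 and Acr had no read in any tumor, beside 13, 22 and 39 reads of the testis form Cox6b2. Tumor 1, where most large ratios of subunit genes had their lowest value, was thus the tumor with the most macrophage and erythroid RNA, and tumor 3 the one with the most B-cell RNA. The part of these cells in the levels of the subunit genes was not tested.

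Members were finally compared by what stands in their promoters, which the name rule did not use. The RefSeq table of GRCm38.p6 held 75 promoters of 69 of the 84 nuclear genes, 3 of them found under a later symbol. Genes without an entry included Ndufs1, Sdhc, Cox4i1, Cox4i2, Cox6a2, Cox6c, Cox8c, Ndufa2, Ndufa4l2, Ndufb9, Uqcrb, Uqcrc2, Uqcrq and Atp5a1. The median window of 300 bases held 19 CpG, against 7 over all 32851 promoters of the table and 21 over 10146 promoters of other genes with a mean of at least 1 FPKM. The ratio of observed to expected CpG was at least 0.6 in 82.7% of the windows of subunit genes, in 70.8% of those of other expressed genes and in 35.8% of all. Among the 4 windows of genes below 1 FPKM it was so in 1.

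The 6 motifs were searched on both strands. The NRF1 motif, GCGCANGCG with N for any base, was found in 21 of the 75 windows or 28%, against 14% of the windows of other expressed genes and 6.25% of all. The YY1 motif, AAGATGGCG, was found in 9 or 12%, against 3.34% and 1.4%. Both were thus more frequent than in either set of other promoters. The ETS motif, CCGGAAG, was found in 16 or 21.3%, against 19.5% and 8.86%, so that subunit genes and other expressed genes were close. The SP1 motif, GGGCGG, was less frequent than in other expressed genes, with 29 windows or 38.7% against 62.6% and 35.7%. The CCAAT box was found in 32 or 42.7% against 37.5% and 37.4%, and with only 100 bases before the start searched in 20 or 26.7% against 25% and 23.4%. The TATA motif, TATAAA, was found in 8 or 10.7% against 6.78% and 13.6%. The matches of different motifs shared bases in 1 window of the subunit genes, that of Ndufs3.

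In complex IV the NRF1 motif was found for Cox6a1 only, and in the other complexes among others for Sdha and Sdhd, Uqcrc1 and Uqcr11, Ndufa6 and Ndufb10, and Atp5g2, Atp5g3 and Atp5h. The YY1 motif lay at a narrow place, as 7 of the 9 matches began within 50 bases of the start, and the median match began 24 bases after it. The matches in promoters 1 and 2 of Atp5sl are the same site, since these windows overlap. Genes with the YY1 motif were Ndufa9, Ndufc1, Ndufs4, Ndufs6, Ndufs7, Atp5j, Atp5j2 and Atp5sl. At least 1 of NRF1, ETS and YY1 was found in 38 of the 75 windows, all of them in none, and in 8 windows none of the 6 motifs. By level, the median FPKM was 34.4 for the 20 expressed subunit genes with an NRF1 motif and 23.4 for the 45 without, and 20.9 for the 8 with a YY1 motif and 32 for the 57 without. It was 41.4 for the 28 with a CCAAT box and 23.9 for the 37 without, and 34.9 for the 16 with an ETS motif and 28 for the 49 without, so a higher level was not particular to NRF1. A match is a string of letters and not a bound site, and no binding or methylation data were used here.

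**Figure D4:**
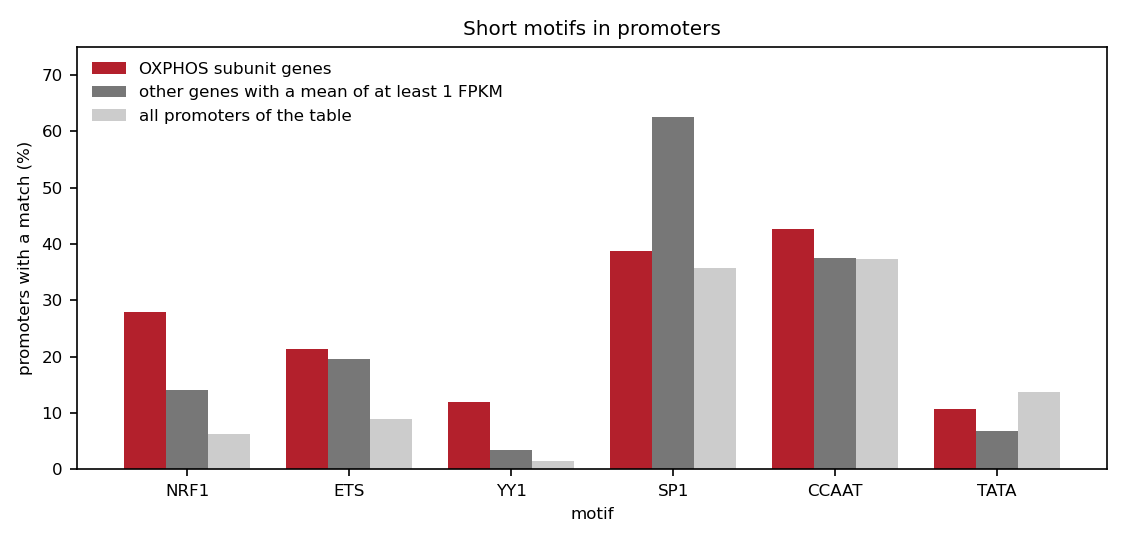
Percentage of promoters (250 bases before to 50 after the RefSeq start) with at least 1 match to each of 6 motifs on either strand, for 75 promoters of OXPHOS subunit genes, 10146 of other genes with a mean of at least 1 FPKM and all 32851 of the table. The subunit genes exceed both other sets for NRF1 and YY1 and fall below other expressed genes for SP1.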

How the data were processed

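FPKM values of 3 Dnmt3b+/− PTCL were used as deposited by the authors, who aligned paired-end reads with STAR to mm10, used a mapping quality cutoff of 50 and quantified with SeqMonk; their DESeq2 results were not used. The subunit genes and the lists were chosen with earlier results of these data known. By rule the text names all mitochondrially encoded, complex II and isoform group genes, the 2 highest, 2 lowest and 2 largest ratios of each other complex, the 2 highest genes and the largest ratio of each related list and the highest gene of each cell type list; others were named after their values were seen. Of the genes that this rule or the lists name, some are not reported here. Medians and counts use a mean of at least 1 FPKM, a ratio of 2 and a pseudocount of 1 FPKM. Reads and depth were recovered from GENCODE exon lengths and the floor of empty genes (0.9 read), which gave whole reads (within 0.05) in all tumors for 92.84% of genes, and 3 reads is the limit for a gene without any. Promoters and sequences are from RefSeq. Alternatives were other scalings, filters, folds, pseudocounts, memberships, promoter windows and leaving out each tumor. Centring by GC content, leaving out X-linked genes or genes with repeated exon words, and the comparison with other genes were chosen after seeing the data. Python 3.11.15, pandas 2.3.3, NumPy 2.4.6 and matplotlib 3.10.9 were used, and the code was tested on simulated data.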

Additional observations from a re-analysis of the deposited data

How the results depend on the processing

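Of 243 recomputed values 201 were counted as the same, 33 as moved and 9 as reversed. Levels, shares and log2 differences counted as the same when they stayed within the SD between tumors, and as reversed when a log2 difference changed sign. Counts of genes or windows counted as the same within a factor of 1.5. The median CV was judged by the SD of its values with 1 tumor left out. On the TPM scale the median level of nuclear subunits was 141, the listed sum of the mitochondrially encoded ones 4.25, and the medians of complexes I to V were 104, 111, 173, 228 and 214, a change of unit by construction. The median log2 difference of tumor 3 from tumor 1 reversed to −0.14 there and with equal sums of FPKM, and moved to 0.29 with median-of-ratios factors and to 0.30 with centring by GC content. That of tumor 2 from tumor 1 moved to −0.28 on the TPM scale and to −0.27 with equal sums, and reversed to 0.00308 with median-of-ratios factors and to 0.0202 with GC centring. Relative to other genes, tumor 2 against tumor 1 reversed to 0.0140 on the TPM scale, to 0.0213 with median-of-ratios factors, 0.0221 with a pseudocount of 0.1 FPKM, 0.0216 with GC centring and 0.0309 with a filter of 0.2 FPKM, and tumor 3 against tumor 1 moved to 0.18 with a filter of 10 FPKM and to 0.0738 without a filter. The count highest in tumor 1 was 18 with median-of-ratios factors and 11 with GC centring, which put 51 in tumor 3. The cause was not tested. The count of genes past the fold was 40 at a fold of 1.5 and 4 at 3, and without genes with repeated exon words it was 10 and the median level 25.9. Shares taken from reads, which are not divided by length, were 100% for Cox7b, 0% for Cox7b2 and Cox8c, 17% for Atp5g1 and 52.8% for Atp5g2. CCAAT was found in 20 of the shorter windows. Leaving out 1 tumor at a time gave a median level of 26.3 to 31.8, a listed sum of the mitochondrially encoded genes of 0.802 to 1.00 (the floor of genes without a read, which follows depth and measures no expression), a median CV of 14.7% to 22.7%, 3 to 12 genes past the fold (with the filter on the remaining tumors; 1 to 12 of the same 76 genes) and a complex IV median of 43.2 to 52.3, which fell below that of complex V (46.5) without tumor 2. GC centring and the settings without X-linked genes or genes with repeated words were chosen after seeing the data, as was the comparison with other genes. No paired analysis was possible because there is 1 group of tumors.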
